A study of Mus musculus with 40 samples.

Results

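The 39 genes described here encode the steps that take glucose to lactate or to glycogen, and they were taken by symbol from a table of 51789 Ensembl gene identifiers, of which 27946 had at least 1 count. They comprise 2 glucose transporters, 12 genes of upper glycolysis from hexokinase to triosephosphate isomerase, 6 of lower glycolysis from Gapdh to pyruvate kinase, 4 for lactate, 6 of the pyruvate dehydrogenase step, 7 of glycogen and 2 of the pentose phosphate branch. All 39 were found once each. The table holds 40 libraries of QuantSeq 3′ mRNA sequencing, made from mouse melanoma cells in culture and falling into 20 groups of 2. The comparisons ask how these genes differ with loss of the clock factor Bmal1, with added WT-Bmal1 or dHLH-Bmal1, with knockdown of Myh9, and between cell lines.

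Glycolysis splits glucose into pyruvate in the cytosol and yields ATP without oxygen. Lactate dehydrogenase turns pyruvate into lactate, monocarboxylate transporters carry lactate across the membrane, and pyruvate dehydrogenase kinases inhibit pyruvate dehydrogenase in mitochondria. Glycogen is built from glucose by phosphoglucomutase, UDP-glucose pyrophosphorylase, glycogen synthase and branching enzyme and is broken down by glycogen phosphorylase. Many genes of this pathway are known targets of the hypoxia factor Hif1α, whose binding sequence overlaps the E-box that Bmal1 and Clock bind, and tumour cells commonly express the pathway at a high level.

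B16-F10 is a mouse melanoma line, represented by 1 control clone and 1 clone labelled Bmal1 KO. YUMM2.1 came from a transgenic melanoma whose alleles include mutant Braf, loss of 1 allele of Cdkn2a and stabilized β-catenin, and YUMM1.7 came from one whose alleles include mutant Braf and loss of Cdkn2a. aC3 is a single CRISPR Bmal1 knockout clone of YUMM2.1, so that all aC3 groups share that knockout and the history of 1 clone. YUMM2.1 and aC3 cells carried lentiviral empty vector (EV), WT-Bmal1 (WT) or dHLH-Bmal1 (dHLH), a form without the basic helix-loop-helix region that binds DNA, and were sorted for GFP. The YUMM1.7 groups carry the same 3 construct labels, and how these cells were made is not given in the sources used here. In the Myh9 experiment, YUMM2.1 cells with EV, WT or dHLH also carried a lentiviral hairpin with puromycin selection, either the scrambled control shNC or one of the hairpins shMyh9#2 and shMyh9#4 against Myh9, the heavy chain of non-muscle myosin IIA. Cells grew in high-glucose medium, and no library was from tumour tissue.

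Library totals ran from 3643332 to 22970049 counts with a median of 10021164.5. A level is given as CPM, counts per 1000000 counts of the library after TMM scaling, for each of the 2 libraries of a group in the order of their replicate numbers. Counts at the 3′ end do not grow with transcript length and were not divided by it, so levels were compared within a gene and not between genes. A gene is said to have risen, fallen or passed when its Benjamini-Hochberg adjusted p in edgeR's quasi-likelihood test over all genes was under 0.05. Fold changes are on the log2 scale with their standard error (SE), and n = 2 libraries in every group. In a table of all cells of a culture, fewer cells of one kind and less RNA per cell cannot be told apart.

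Several libraries needed care. In the study's own table of normalized counts, 2 YUMM2.1 columns matched deposited libraries of the other label, over 1809 genes. The column named EV 2 matched the library labelled WT replicate 1, and the column named WT 1 matched the library labelled EV replicate 2. The chi-square per degree of freedom was 22.2 between the labelled EV libraries and 9.91 between the labelled WT libraries. It was 8.63 between EV and WT replicates 1 and 4.19 between EV and WT replicates 2. Construct results of YUMM2.1 are given as labelled, with these 2 labels exchanged and without both libraries. The 2 libraries labelled B16-F10 Bmal1 KO differed from each other by a chi-square of 96.5 per degree of freedom, against a median of 7.15 over the groups. Arntl, the symbol of Bmal1, had 15.2 and 10.7 CPM in B16-F10 control and 13.3 and 11.5 CPM in KO libraries, and in aC3 EV it had 33.1 and 30.5 CPM against 15.9 and 13.9 CPM in YUMM2.1 EV. In aC3 it had 18.2 and 17.5 CPM with WT and 45.4 and 31.8 CPM with dHLH, of which WT was below EV (-0.83, adjusted p = 0.00356). An edited gene can still give 3′ tags, so these counts do not check the knockouts. Arntl had 13.9 and 18.3 CPM in YUMM2.1 WT and 51.1 and 35.4 CPM in YUMM2.1 dHLH, and only the second differed from EV, by 1.54 (SE 0.24, adjusted p = 0.00952). Myh9 fell in all 6 hairpin comparisons, by 1.51, 2.04 and 1.69 with shMyh9#2 and by 0.52, 0.93 and 0.42 with shMyh9#4 in EV, WT and dHLH cells. The pigment markers Dct, Mlana and Tyrp1 were at 0 in every library of YUMM2.1, aC3 and YUMM1.7 without a hairpin, while 7 melanocytic markers summed to 19764 to 26052 CPM in B16-F10. In YUMM2.1, aC3 and the hairpin libraries, Sox10 and Mitf made up nearly all of this sum. Sox10 ranged from 441.2 to 610.1 CPM in aC3 and from 12.3 to 334 CPM in the hairpin libraries. Mitf ranged from 11.9 to 15.6 CPM and from 14.6 to 26.8 CPM in these. Markers of immune, endothelial, keratinocyte and epithelial cells (9 genes) summed to 5.87 to 27.1 CPM per library.

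Windows of 250 bases before the RefSeq start were available for 38 of the 39 genes and were searched on both strands for the hypoxia response core, ACGTG or GCGTG, and for the E-box CACGTG, which holds ACGTG on each strand and was then counted under both. The core was present in 43 of 56 windows of the members (76.8%) and in 38.6% of 32851 windows of all genes, and the E-box in 6 of 56 (10.7%) and in 6.02%. A match is a description of the letters only. The windows below are from RefSeq on GRCm38.p6, all on the plus strand, with the motif letters in capitals. Pdk1 (chr2:71872974-71873223), Gbe1 (chr16:70313699-70313948) and Pgm1 (chr4:99929201-99929413) are shown as examples of members that rose in several comparisons, and Ldha (chr7:46845554-46845803) because it holds both motifs. Pdk1 rose in 3 comparisons within an experiment, as did some members not shown, and Gys1, also not shown, rose in 4. The Gys1 window and a second Pdk1 window hold neither motif. The Pgm1 window was ended at its first exon after 213 bases and lies in a locus where Itgb3bp is annotated on the opposite strand.
Pdk1: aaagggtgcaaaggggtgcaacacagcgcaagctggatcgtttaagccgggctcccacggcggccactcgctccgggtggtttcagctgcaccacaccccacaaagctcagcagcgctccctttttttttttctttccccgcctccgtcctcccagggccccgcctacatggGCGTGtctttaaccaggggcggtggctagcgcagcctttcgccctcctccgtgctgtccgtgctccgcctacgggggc
Gbe1: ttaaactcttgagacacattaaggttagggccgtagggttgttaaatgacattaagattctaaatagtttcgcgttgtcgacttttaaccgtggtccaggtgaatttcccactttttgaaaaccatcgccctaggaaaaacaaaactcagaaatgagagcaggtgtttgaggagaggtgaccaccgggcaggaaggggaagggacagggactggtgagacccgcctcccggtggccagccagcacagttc
Pgm1: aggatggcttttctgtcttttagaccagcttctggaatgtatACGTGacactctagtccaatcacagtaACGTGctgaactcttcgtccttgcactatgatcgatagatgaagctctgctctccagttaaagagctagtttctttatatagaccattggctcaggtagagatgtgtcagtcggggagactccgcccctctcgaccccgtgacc
Ldha: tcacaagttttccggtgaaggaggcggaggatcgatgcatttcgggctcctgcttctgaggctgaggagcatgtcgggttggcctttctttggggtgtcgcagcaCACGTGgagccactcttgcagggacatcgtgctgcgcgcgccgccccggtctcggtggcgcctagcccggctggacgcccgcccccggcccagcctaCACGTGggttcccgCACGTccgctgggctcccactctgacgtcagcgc
Pdk1 held 1 core, 73 bases before the start, Pgm1 held 2, and Gbe1 held none. Ldha held 2 E-boxes, and its 5 core matches include those inside the E-boxes.

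Levels spanned a wide range, and the rarest members had a few counts in total. Among transporters, Slc2a3 (GLUT3) ranged from 63.2 to 176 CPM over the 40 libraries and Slc2a1 (GLUT1) from 19.2 to 100.0 CPM. In upper glycolysis, Aldoa (aldolase A) had a median of 1284 CPM and Aldoc (aldolase C) a median of 0.674 CPM. Gapdh, the glyceraldehyde phosphate dehydrogenase, ranged from 2059 to 5576 CPM, and Eno2, the neuronal enolase isoform, from 4.81 to 24.3 CPM. Rare members rested on few counts per library, which limited the differences that could be detected in them. Eno1 has 5 near-identical copies elsewhere in the genome, Aldoa and Pkm have 2 each and Gapdh has many. Reads could be divided between these copies, so the counts of these members are less certain.

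For lactate, Ldha (lactate dehydrogenase A) had a median of 1033 CPM and Slc16a3 (the lactate exporter MCT4) a median of 0.758 CPM. At the pyruvate dehydrogenase step, Pdha1, a subunit of the enzyme, had a median of 124 CPM, and Pdk4, a kinase of the enzyme, had 22 counts in all 40 libraries and was tested in no comparison. Among glycogen genes, Pgm1 (phosphoglucomutase) had a median of 146 CPM and Pygl (the liver isoform of glycogen phosphorylase) had 0 counts in every YUMM2.1, aC3 and hairpin library. In the pentose phosphate branch, Pgd had a median of 138 CPM and G6pdx a median of 41.9 CPM. The members together took 0.90% of counts in YUMM1.7 dHLH and 1.81% in dHLH shMyh9#4, the lowest and highest of the 20 group means.

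**Figure D1:**
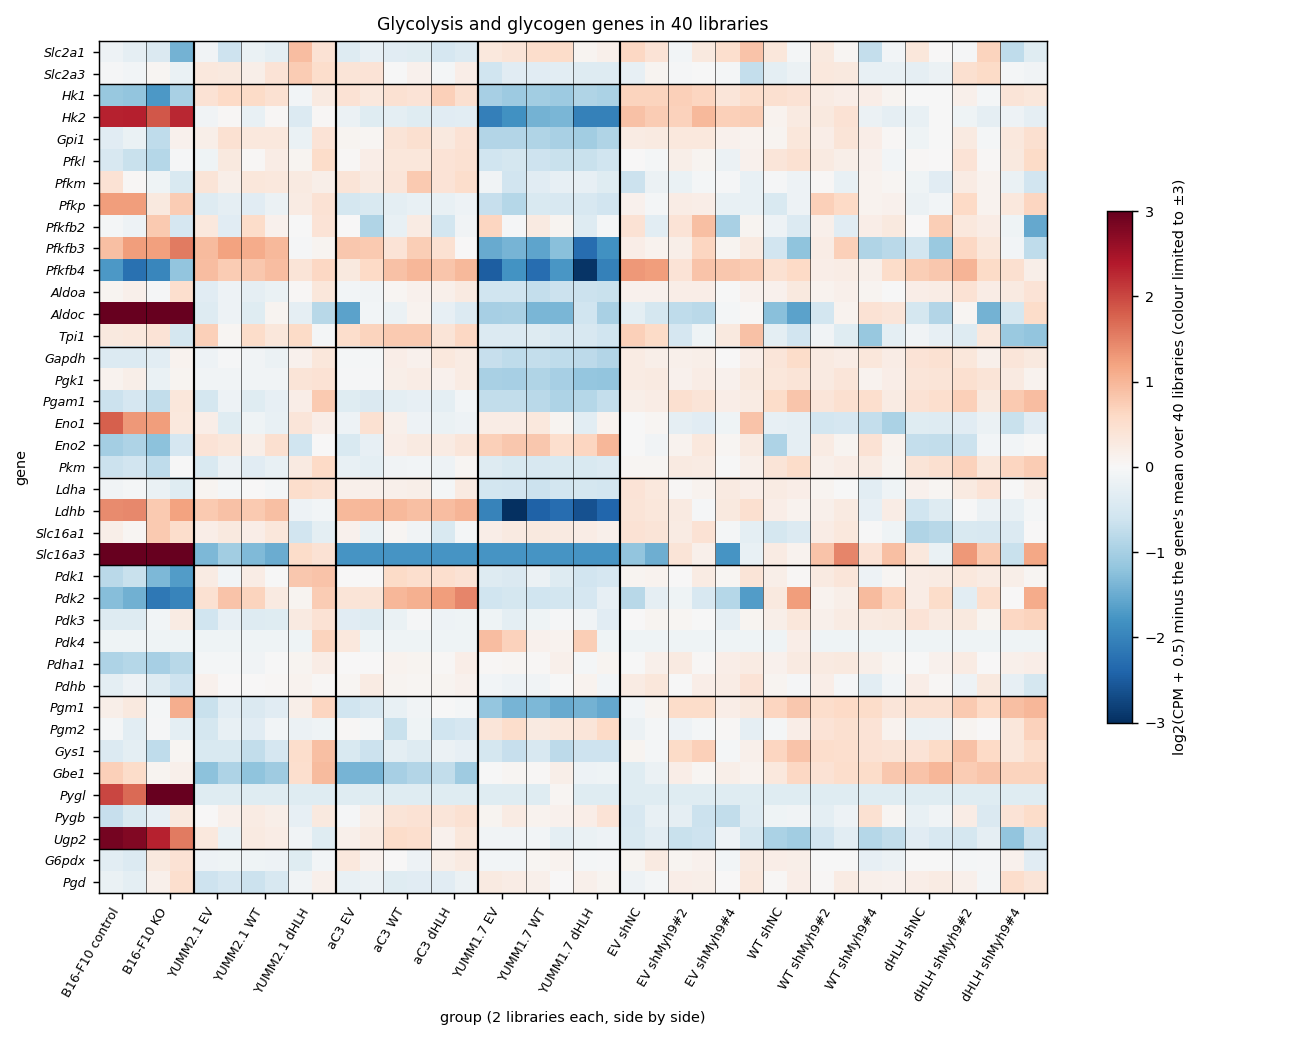
Levels of the 39 members (rows) in the 40 libraries (columns, 2 per group) as log2(CPM + 0.5) minus the mean of each gene over all libraries, with colour limited to 3 in either direction. Hk2, Aldoc, Slc16a3, Pygl and Ugp2 stand high in B16-F10, Ldhb, Pfkfb3, Pfkfb4 and Pgk1 stand low in YUMM1.7, and Gbe1 is higher in YUMM2.1 dHLH than in the other YUMM2.1 and aC3 groups without a hairpin.

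Lines differed in which isozymes they expressed. Against YUMM2.1 EV, 24 of 38 members tested passed in B16-F10 control (13 higher and 11 lower), where 46.9% of all genes tested passed (21.2% higher and 25.6% lower), and 22 of 38 passed in YUMM1.7 EV (4 higher and 18 lower), where 31.8% of all genes passed (15.3% higher and 16.5% lower). In B16-F10, 4 of the called members had passed the filter on low counts in the higher group and not in the lower one. Without these the count was 20 of 34 (10 higher and 10 lower). The median log2 difference of the members was -0.07 for B16-F10 and -0.43 for YUMM1.7, and that of all genes was 0 in both. Both comparisons share the YUMM2.1 EV libraries, and line and experiment cannot be told apart in them. With the 2 conflicting YUMM2.1 labels exchanged, 23 members passed in B16-F10 (13 higher and 10 lower) and 21 in YUMM1.7 (3 higher and 18 lower). Of all genes, 47.7% and 34.7% then passed.

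The largest differences of B16-F10 were in single isozymes. Slc16a3 (ENSMUSG00000025161, chr11:120948480-120960868 of GRCm38, plus strand) had 72.3 and 71.4 CPM in B16-F10 control and 0.166 and 0.324 CPM in YUMM2.1 EV, or 2989 against 5 counts, a ratio of 306 with a counting interval of 131 to 944. It was at 0 in all 6 aC3 and all 6 YUMM1.7 libraries, where 3 counts would be 0.268 to 0.322 CPM and 0.263 to 0.307 CPM. The separation between the lines was complete.

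Pygl had 2.097 and 1.60 CPM in B16-F10 control and was at least 6.57-fold higher than in YUMM2.1 EV, where both libraries were at 0 and were set to a floor of 3 counts each. Aldoc had 36.7 and 35.3 CPM in B16-F10 control against 0.664 and 0.863 CPM in YUMM2.1 EV. Pygl passed the filter on low counts only through the 2 B16-F10 groups, Aldoc only through these and WT shMyh9#4, and Slc16a3 through 8 of the 20 groups but not YUMM2.1 EV, so their values are a description. Hk2 (hexokinase 2, the inducible isoform) had 531 and 540.0 CPM in B16-F10 control and 98.6 and 109 CPM in YUMM2.1 EV. The groups did not overlap, and the log2 difference was 2.37 (SE 0.14, adjusted p = 4.26e-14). Ugp2, which makes the UDP-glucose that glycogen synthase uses, had 260.2 and 246 CPM against 44.3 and 30.5 CPM, higher by 2.75 (SE 0.19, adjusted p = 1.46e-12).

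In the opposite direction, Pfkfb4, a bifunctional regulator of fructose 2,6-bisphosphate, had 2.57 and 1.65 CPM in B16-F10 control and 18.8 and 16.7 CPM in YUMM2.1 EV, a log2 difference of -3.06 (SE 0.30, adjusted p = 1.06e-09). Pdk2 had 0.858 and 0.727 CPM against 4.07 and 5.50 CPM. It passed the filter on low counts through 17 of the 20 groups, YUMM2.1 EV among them, but not B16-F10 control, so its values are a description. Pdk1 had 40.2 and 44.0 CPM against 83.0 and 65.8 CPM and differed by -0.82 (SE 0.13, adjusted p = 5.21e-06). Pdk1 and Pdk2 are kinases that inhibit pyruvate dehydrogenase, and of these Pdk1 passed without resting on the filter. Slc2a1 (0.13, adjusted p = 0.709), Ldha (-0.11, adjusted p = 0.37) and Gys1 (0.11, adjusted p = 0.646) did not pass between these lines.

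YUMM1.7 had lower levels of many glycolytic genes than YUMM2.1, and 10 of 12 upper glycolysis members fell. Ldhb, the lactate dehydrogenase subunit of heart, had 5.17 and 2.34 CPM in YUMM1.7 EV and 38.2 and 41.3 CPM in YUMM2.1 EV, a difference of -3.39 (SE 0.22, adjusted p = 6.64e-13). Pfkfb4 had 1.34 and 2.43 CPM, a log2 difference of -3.23 (SE 0.32, adjusted p = 3.84e-09), and Pfkfb3, the isoform with the strongest kinase activity, had 1.25 and 1.40 CPM against 9.05 and 10.9 CPM, a log2 difference of -2.90 (SE 0.33, adjusted p = 4.57e-08). No YUMM1.7 EV library reached the YUMM2.1 EV range for these genes.

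Hexokinases fell together in YUMM1.7. Hk2 had 25.5 and 30.1 CPM and differed from YUMM2.1 EV by -1.90 (SE 0.15, adjusted p = 2.16e-11). Hk1, the constitutive hexokinase, had 113 and 105 CPM against 307 and 342 CPM and differed by -1.57 (SE 0.15, adjusted p = 1.41e-09). Pdk2 had 1.69 and 1.78 CPM and differed by -1.45 (SE 0.42, adjusted p = 0.00772). Ldha had 677 and 660.5 CPM against 1044 and 952 CPM, a log2 difference of -0.58 (SE 0.10, adjusted p = 2.06e-05), and Pdk1 had 53.4 and 51.5 CPM, a log2 difference of -0.51 (SE 0.13, adjusted p = 0.00302).

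The 4 members higher in YUMM1.7 were Gbe1 (1.11), Pgm2 (0.85), Pgd (0.80) and Slc2a1. Slc2a1 had 65.7 and 68.7 CPM in YUMM1.7 EV and 49.1 and 33.7 CPM in YUMM2.1 EV and differed by 0.70 (SE 0.26, adjusted p = 0.0389). The adjusted p of Slc2a1 was 0.12 with the 2 YUMM2.1 labels exchanged, 0.369 without both libraries, and 0.341 without EV replicate 2 alone. It was 0.0983 without YUMM1.7 EV replicate 1 and 0.161 without YUMM1.7 EV replicate 2. Pdk2 also lost its call without YUMM2.1 EV replicate 2 (adjusted p = 0.069) without YUMM1.7 EV replicate 1 (0.0631) and without the 2 conflicting libraries (0.0704), and Pdk1 without YUMM2.1 EV replicate 1 (0.132).

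Shares of isozyme counts within a family showed the same contrast per library, and are compared here between lines only. Hk2 was 81.8 to 85.2% of Hk1 and Hk2 counts in B16-F10, 21.5 to 28.6% in YUMM2.1, 18.5 to 23.6% in aC3, 17.6 to 27.9% in YUMM1.7 and 23.4 to 37.5% in the hairpin libraries. Slc16a3 was 55.0 to 66.2% of Slc16a1 and Slc16a3 counts in B16-F10 and 0.178 to 6.36% in YUMM2.1. Among the Pfkfb genes, Pfkfb3 was 71.7 to 82.0% in B16-F10 and 22.2 to 38.5% in YUMM2.1. B16-F10 libraries lay outside the range of the other lines for Hk2, Slc16a3 and Pfkfb3. Ldhb was 0.353 to 0.758% of Ldha and Ldhb counts in YUMM1.7, below every library of the other lines.

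**Figure D2:**
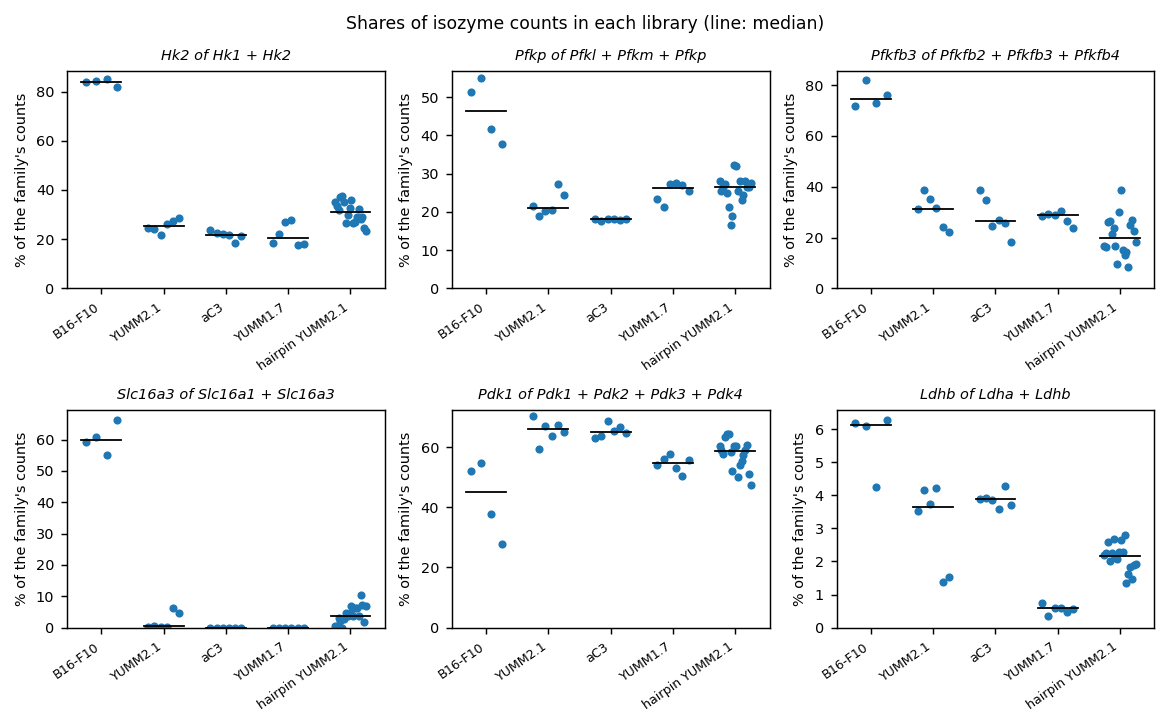
Share of each isozyme in the counts of its family (y axis, percent), 1 point per library, by line (x axis), with the median as a line. Hk2, Pfkfb3 and Slc16a3 take their highest shares in the 4 B16-F10 libraries, Ldhb its lowest in the 6 YUMM1.7 libraries, and Slc16a3 is at 0% in aC3 and YUMM1.7.

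Between aC3 EV and YUMM2.1 EV, edgeR and DESeq2 each called 0 of 38 members, with 2.48% of all genes called by edgeR (0.475% higher and 2% lower). At an unadjusted p under 0.05 in edgeR were 5 of 38 members and 1836 of 16619 genes. Slc16a3, at 0 in both aC3 EV libraries, had 5 counts in the YUMM2.1 EV libraries. Gbe1 had 19.8 and 19.8 CPM in aC3 EV and 22.2 and 27.2 CPM in YUMM2.1 EV, a difference of -0.32 (SE 0.15, adjusted p = 0.412).

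In B16-F10, 1 of 38 members tested passed between KO and control, with 0.44% of all genes called (0.22% higher and 0.22% lower). Pygl (ENSMUSG00000021069, chr12:70190811-70231488 of GRCm38, minus strand) had 2.097 and 1.60 CPM in control and 13.6 and 14.3 CPM in KO libraries. Both KO libraries were above both controls, and the log2 difference was 2.91 (SE 0.28, adjusted p = 0.0337). Pygl overlaps a noncoding gene on the opposite strand. The median log2 difference of the 38 members was 0.02 and that of all genes -0.01.

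The KO libraries themselves disagreed for several members. Pgm1 had 126 and 278 CPM and Pgam1 (phosphoglycerate mutase) 1206 and 2565 CPM in the 2 KO libraries, against 146 and 159.9 and 1307 and 1438 CPM in control. Eno1 (enolase 1) had 653 and 340.2 CPM in KO and 945 and 675 CPM in control. For Pgm1 and Pgam1, 1 KO library lay below both controls and the other above them. Slc2a1 had 38.7 and 19.2 CPM in KO and 47.4 and 43.4 CPM in control (-0.65, adjusted p = 0.499).

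Other members kept apart from the control range in both KO libraries without passing the test. Pdk1 had 27.4 and 21.6 CPM in KO and 40.2 and 44.0 CPM in control (-0.79, adjusted p = 0.258). Slc16a3 had 93.0 and 124 CPM against 72.3 and 71.4 CPM (0.59, adjusted p = 0.356). Hk2 (-0.25, adjusted p = 0.63), Ldha (-0.19, adjusted p = 0.655) and Gys1 (0.06, adjusted p = 0.946) did not pass, and Gys1 overlapped between the groups. Of 50 other genes of these pathways tested, 1 passed, Pck2 (mitochondrial phosphoenolpyruvate carboxykinase), a log2 difference of -1.74 (SE 0.19, adjusted p = 0.0365). Leaving out KO replicate 1 gave 25 members (16 higher and 9 lower), where 43.4% of all genes were called, and leaving out KO replicate 2 gave 15 (5 higher and 10 lower), where 14.5% were called, Pygl among both, while leaving out either control library gave 0 (Pygl adjusted p = 0.0594 and 0.137).

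In aC3, the EV, WT and dHLH groups differed by small amounts in a few members. Against EV, 6 of 34 members tested passed with WT (5 higher and 1 lower), where 11.2% of all genes passed (4.92% higher and 6.28% lower), and 8 of 34 passed with dHLH (7 higher and 1 lower), where 10.9% passed (4.79% higher and 6.09% lower). The median log2 difference of the members was 0.18 with WT and 0.20 with dHLH, against 0.01 for all genes in each. Both comparisons use the same EV libraries, so members called in both are not independent observations. Between WT and dHLH, edgeR and DESeq2 each called 0 of 34 members, with 0.877% of all genes called by edgeR (0.442% higher and 0.435% lower). At an unadjusted p under 0.05 in edgeR were 3 of 34 members and 1638 of 13790 genes.

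Pdk1 (ENSMUSG00000006494, chr2:71873224-71903858 of GRCm38, plus strand) had 70.8 and 70.5 CPM in aC3 EV, 104 and 99.1 CPM in WT and 100.0 and 95.5 CPM in dHLH. Both constructs were above EV in every library, by 0.52 (SE 0.09, adjusted p = 0.00151) with WT and by 0.46 (SE 0.09, adjusted p = 0.00444) with dHLH. Pdk2 had 3.85 and 3.80 CPM in EV and 7.36 and 8.71 CPM in dHLH, higher by 1.05 (SE 0.25, adjusted p = 0.0171). Pdk2 with WT had 6.05 and 6.47 CPM and did not pass (0.71, adjusted p = 0.0967).

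The glycogen genes Pgm1 (ENSMUSG00000025791, chr4:99929414-99987294 of GRCm38, plus strand) and Gbe1 (ENSMUSG00000022707, chr16:70313949-70569716 of GRCm38, plus strand), which make glucose 1-phosphate and the branches of glycogen, rose with both constructs. Pgm1 had 86.7 and 93.7 CPM in EV, 112 and 121 CPM in WT and 130.2 and 125 CPM in dHLH. Its differences from EV were 0.37 (SE 0.09, adjusted p = 0.0149) and 0.49 (SE 0.09, adjusted p = 0.00332). Gbe1 had 19.8 and 19.8 CPM in EV, 26.0 and 28.5 CPM in WT and 31.3 and 24.8 CPM in dHLH. The EV libraries were below all 4 others, with differences of 0.46 (SE 0.14, adjusted p = 0.0455) and 0.49 (SE 0.14, adjusted p = 0.0341). Gys1, glycogen synthase, had 36.4 and 31.8 CPM in EV, 40.7 and 38.0 CPM in WT and 44.3 and 42.0 CPM in dHLH and passed in neither (0.20 and 0.33, adjusted p = 0.288 and 0.0812).

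Eno2 had 8.50 and 9.92 CPM in EV, 13.8 and 14.5 CPM in WT and 14.3 and 15.5 CPM in dHLH, higher by 0.62 (SE 0.18, adjusted p = 0.0441) and 0.68 (SE 0.18, adjusted p = 0.0294). Gpi1, glucose-6-phosphate isomerase, had 621 and 610.4 CPM in EV and 768 and 810.3 CPM in WT, a difference of 0.36 (SE 0.09, adjusted p = 0.0192), and it has 1 near-identical copy elsewhere in the genome between which reads could be divided. The only called member that was lower was Slc2a3. It had 135 and 138 CPM in EV, 102 and 114 CPM in WT and 99.2 and 119.5 CPM in dHLH, with differences of -0.34 (SE 0.10, adjusted p = 0.0405) and -0.34 (SE 0.10, adjusted p = 0.0458).

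Slc2a1 (-0.05 with WT and -0.16 with dHLH), Hk2 (-0.06 and -0.07) and Ldha (0.01 and -0.05) did not pass in aC3, and Slc16a3 was at 0. Gapdh and Pfkl, the liver isoform of phosphofructokinase, also rose with dHLH, by 0.32 and 0.30. Of 49 other pathway genes tested, 4 passed with WT and 3 with dHLH, among them Phkb, a subunit of glycogen phosphorylase kinase, at 0.70 and 0.52, and Ppp1r3c, which brings protein phosphatase to glycogen, at 1.98 with WT. The melanocytic sum was 453 to 466 CPM in EV, 562 to 567 CPM in WT and 564 to 626 CPM in dHLH, and its part in these differences was not tested. With any 1 of the 4 libraries left out the count with WT was 1, Pdk1 each time, and the count with dHLH was 1 without EV replicate 1 or 2 and 10 and 8 without dHLH replicates 1 and 2, Eno2 being lost each time, Gbe1 and Slc2a3 without EV replicate 1, EV replicate 2 or dHLH replicate 1, Pdk2 without EV replicate 1, EV replicate 2 or dHLH replicate 2, Pdk1 without EV replicate 1 or 2, and Pgm1 without EV replicate 1. In one fit of all 40 libraries the counts were 1 and 0, and DESeq2 did not call Eno2, Gbe1 or Slc2a3 with either construct (adjusted p = 0.0527 to 0.176).

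In YUMM2.1, no member passed with WT, and glycogen, glycolysis and lactate genes were among those that passed with dHLH. With WT against EV, edgeR and DESeq2 each called 0 of 36 members, with 0% of all genes called, 0 members and 98 of 14323 genes at an unadjusted p under 0.05. The count of members was 0 as labelled, with the 2 labels exchanged and without both libraries, while the count of all genes was 0 as labelled, 101 of 14323 with the labels exchanged and 40 of 14878 without both. The 6 genes followed throughout had log2 differences of 0.09 for Slc2a1, -0.05 for Hk2, -0.04 for Ldha, 0.03 for Pdk1 and -0.16 for Gys1, while Slc16a3 had 5 counts in EV and fewer than 1 CPM in each WT library (0.171 and 0.0998 CPM).

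With dHLH against EV, 16 of 36 members tested passed (13 higher and 3 lower), where 13.2% of all genes passed (6.51% higher and 6.72% lower). Slc16a3 passed the filter on low counts only through the dHLH group, where it is high, and without it the count was 15 of 35 (12 higher and 3 lower). The median log2 difference of the members was 0.24 and that of all genes -0.01. All 3 of Gbe1, Gys1 and Pgm1 among the 6 glycogen genes tested were higher, as were 3 of 6 lower glycolysis genes, 2 of 5 at the pyruvate dehydrogenase step and 1 of 2 transporters. In upper glycolysis 1 of 11 tested rose and 1 fell.

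Gbe1 had 22.2 and 27.2 CPM in EV and 74.0 and 102 CPM in dHLH. The lower dHLH library was above every EV and WT library of YUMM2.1, and the log2 difference was 1.84 (SE 0.20, adjusted p = 0.00334), the second largest among the called members. Gys1 (ENSMUSG00000003865, chr7:45434844-45456619 of GRCm38, plus strand, overlapping Ruvbl2 on the opposite strand) had 36.0 and 36.5 CPM in EV and 72.6 and 93.2 CPM in dHLH, higher by 1.197 (SE 0.17, adjusted p = 0.007). Pgm1 had 82.4 and 104 CPM in EV and 146 and 206 CPM in dHLH, higher by 0.92 (SE 0.20, adjusted p = 0.0258). The 3 enzymes lie on the route from glucose 6-phosphate to branched glycogen, while Ugp2 on the same route had 44.3 and 30.5 CPM in EV and 32.6 and 27.5 CPM in dHLH and did not pass (-0.32, adjusted p = 0.37).

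The transporters and lactate genes split. Slc2a1 had 49.1 and 33.7 CPM in EV and 100.0 and 71.0 CPM in dHLH, higher by 1.05 (SE 0.23, adjusted p = 0.0293). Slc16a3 had 0.166 and 0.324 CPM in EV and 1.99 and 1.78 CPM in dHLH, or 5 and 36 counts, a ratio of 8.09 with a counting interval of 3.16 to 26.4, given as a description only. Slc16a1, the transporter MCT1, moved the other way, with 50.4 and 54.3 CPM in EV and 29.3 and 35.8 CPM in dHLH, a log2 difference of -0.68 (SE 0.16, adjusted p = 0.0325). Ldha had 1044 and 952 CPM in EV and 1409.9 and 1359.6 CPM in dHLH, higher by 0.48 (SE 0.12, adjusted p = 0.0395), and Ldhb had 38.2 and 41.3 CPM in EV and 19.8 and 20.9 CPM in dHLH, a log2 difference of -0.96 (SE 0.15, adjusted p = 0.00913). Neither pair of groups overlapped, but this sets the 2 genes apart from few others, since most members tested here did not overlap, called or not. Ldha has 6 and Ldhb 1 near-identical copies in the genome, so their counts are less certain than those of Slc16a1.

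Pdk1 had 83.0 and 65.8 CPM in EV and 124 and 128 CPM in dHLH, higher by 0.77 (SE 0.16, adjusted p = 0.0231), and Pdk3, another kinase of the complex, was higher by 0.78. Pfkfb3 had 9.05 and 10.9 CPM in EV and 4.36 and 4.76 CPM in dHLH, a log2 difference of -1.12 (SE 0.24, adjusted p = 0.0266). Smaller rises were those of Pgam1 (0.85), Pkm (0.76), the platelet phosphofructokinase Pfkp (0.68), Pgd (0.59) and Pgk1 (0.51). Hk2 had 98.6 and 109 CPM in EV and 79.6 and 109.5 CPM in dHLH and did not pass (-0.13, adjusted p = 0.686). Hif1a, a regulator of many of these genes, had 123 and 109 CPM in EV and 104 and 110.2 CPM in dHLH and did not pass (-0.11, adjusted p = 0.622).

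Among 52 other pathway genes tested, 5 rose and 5 fell with dHLH. Gpd1, the cytosolic glycerol 3-phosphate dehydrogenase, had 28.2 and 27.6 CPM in EV and 2.18 and 1.90 CPM in dHLH (-3.76). Slc2a10, another member of the glucose transporter family, had 0.996 and 0.755 CPM in EV and 6.25 and 7.37 CPM in dHLH (2.93). The sum of the 7 melanocytic markers was 498 to 516 CPM in EV and 81.4 to 94.1 CPM in dHLH, with Dct, Mlana and Tyrp1 at 0 in both. This fall was that of Sox10, with group means of 493 CPM in EV and 69.6 CPM in dHLH. Mitf did not fall, with means of 14.3 and 18 CPM. The part of these markers in the differences was not tested.

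The share of all genes that passed with dHLH was 13.2% as labelled and 28.7% with the 2 labels exchanged. Where libraries are left out below, 1 library remains in a group. Such counts do not show whether members passed more often than other genes. The dHLH count of members depended on the libraries used. It was 20 (16 higher and 4 lower, with the 16 of the labelled analysis among them) with the 2 labels exchanged and 5 (4 higher and 1 lower) without both libraries. Gbe1, Gys1 and Ldhb passed in each of these, while Pfkfb3 (adjusted p = 0.131), Slc2a1 (0.0812), Ldha (0.445) and Pdk1 (0.157) did not pass without both libraries. Leaving out single libraries gave 5 without EV replicate 1, 6 without EV replicate 2, 7 without dHLH replicate 1 and 5 without dHLH replicate 2, and Gbe1, Gys1 and Ldhb passed each time, while Pfkfb3 and Ldha were lost each time, Pdk1 in all but the first and Slc2a1 without EV replicate 2 or dHLH replicate 1.

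**Figure D3:**
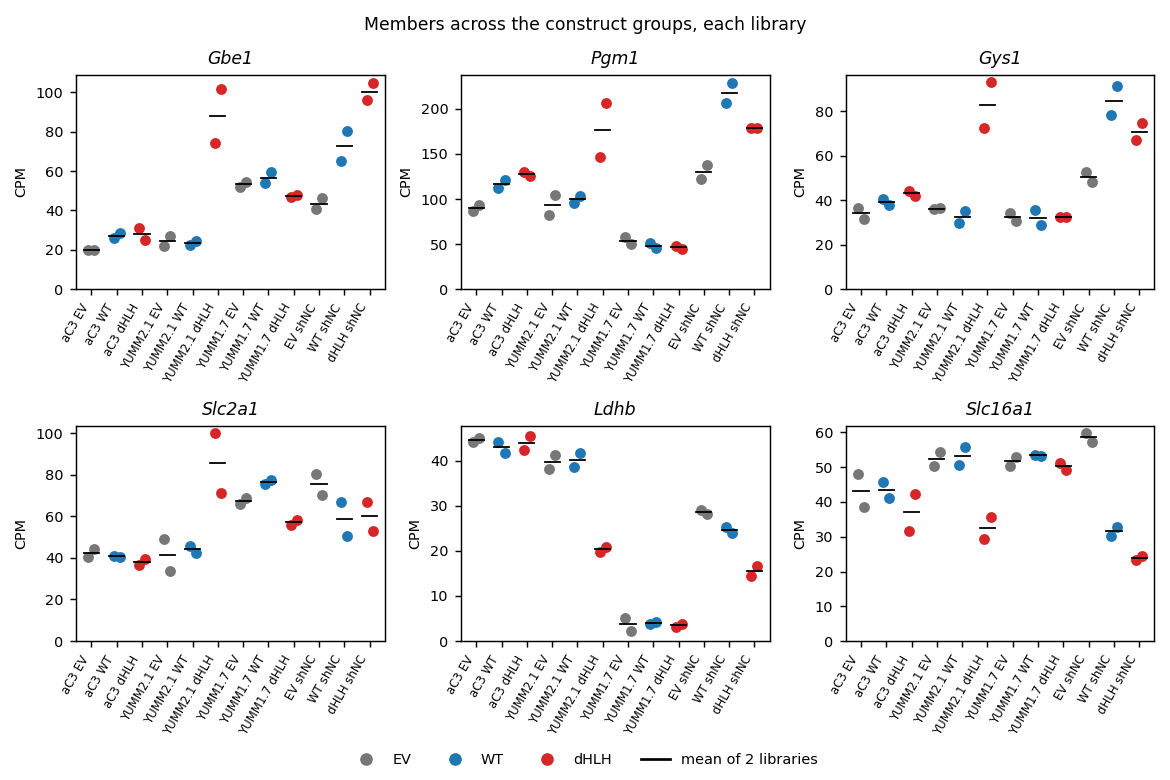
CPM of Gbe1, Pgm1, Gys1, Slc2a1, Ldhb and Slc16a1 (y axes from 0) in the EV, WT and dHLH groups of aC3, YUMM2.1, YUMM1.7 and YUMM2.1 with shNC (x axis), 1 point per library and a line at the mean of the 2. The YUMM2.1 dHLH libraries stand above EV for Gbe1, Pgm1, Gys1 and Slc2a1 and below it for Ldhb and Slc16a1, and the YUMM1.7 groups lie close together.

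In YUMM1.7, no member passed with either construct. With WT, edgeR and DESeq2 called 0 of 35 members, with 0.138% of all genes called by edgeR (0.0434% higher and 0.0941% lower). With dHLH, edgeR called 0 of 35 members and DESeq2 1, with 0.63% of all genes called by edgeR (0.21% higher and 0.42% lower). At an unadjusted p under 0.05 in edgeR were 5 members and 1423 of 13816 genes with WT. With dHLH these were 7 members and 1428 of 13816 genes. Both comparisons use the same EV libraries. The median log2 difference of the members was 0.000344 with WT and -0.05 with dHLH.

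Hk2 came nearest to the threshold with WT. It had 25.5 and 30.1 CPM in EV, 39.8 and 40.8 CPM in WT and 25.9 and 25.8 CPM in dHLH. The WT libraries were above the others, by 0.55 (SE 0.11, adjusted p = 0.0548). Gbe1 had 52.1 and 54.3 CPM in EV, 53.9 and 59.5 CPM in WT and 46.9 and 47.6 CPM in dHLH, and Pgm1 had 58.3 and 49.7, 50.8 and 45.4 and 48.4 and 44.8 CPM. The dHLH values of Gbe1 were the lowest of the 3 groups, with a difference of -0.17 (SE 0.09, adjusted p = 0.531). Log2 differences with dHLH were -0.23 for Slc2a1, 0.03 for Ldha, -0.13 for Pdk1 and 0.00 for Gys1, and Slc16a3 was at 0 in every library. The count with WT was 1 without WT replicate 1, and the count with dHLH was 1 without dHLH replicate 2.

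The dHLH comparisons in aC3, in YUMM2.1 and in YUMM2.1 with shNC share no library. The hairpins were put into the YUMM2.1 EV and dHLH lines, so the YUMM2.1 and shNC comparisons are not independent of each other. Pgm1 and Gbe1 were the members called higher in all 3. That is 2 of 7 called higher in aC3, 2 of 13 in YUMM2.1 and 2 of 6 with shNC. No member was called lower in all 3. The dHLH comparison in YUMM1.7, which also shares no library with these 3, was not counted. There edgeR called 0 of 35 members, and Gbe1 and Pgm1 had lower CPM with dHLH than with EV. Of all genes tested in the 3 comparisons, 60 of 13322 (0.45%) were called higher in all. In aC3 the dHLH calls of Pgm1 and Gbe1 were lost in one fit of all 40 libraries (adjusted p = 0.276 and 0.0994), and that of Gbe1 in DESeq2 (0.123). In YUMM2.1 the dHLH call of Pgm1 was lost without EV replicate 1 and without dHLH replicate 2, while that of Gbe1 was kept. The change in Gbe1 was 0.49 in aC3, 1.84 in YUMM2.1 and 1.21 with shNC, and the difference between the first and second was itself called, at -1.33 (SE 0.20, adjusted p = 3.93e-05). For Pgm1 the values were 0.49, 0.92 and 0.46, and the aC3 and YUMM2.1 effects did not differ past the threshold (-0.42, adjusted p = 0.441).

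With the control hairpin shNC, WT and dHLH both differed from EV in many members. WT passed in 14 of 37 members tested (8 higher and 6 lower), where 22.3% of all genes passed (11.7% higher and 10.6% lower), and dHLH in 13 of 37 (6 higher and 7 lower), where 26.4% passed (13.9% higher and 12.5% lower). The median log2 difference of the members was 0.02 with WT and -0.02 with dHLH, and that of all genes 0.02 in each. Both comparisons share the EV shNC libraries. Of 12 upper glycolysis genes, 4 fell and 1 rose with WT, and 3 fell and 0 rose with dHLH. In the glycogen list, 3 of 6 genes tested rose with each construct.

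Slc16a1 (ENSMUSG00000032902, chr3:104638668-104658462 of GRCm38, plus strand) had 59.96 and 57.3 CPM in EV shNC, 30.3 and 32.8 CPM in WT shNC and 23.4 and 24.5 CPM in dHLH shNC. The 3 groups did not overlap, and the differences from EV were -0.89 (SE 0.15, adjusted p = 0.000277) and -1.29 (SE 0.15, adjusted p = 4.12e-06). Hk2 (ENSMUSG00000000628, chr6:82725025-82774454 of GRCm38, minus strand) had 196 and 181 CPM in EV, 115 and 129 CPM in WT and 90.7 and 105 CPM in dHLH. Its differences from EV were -0.63 (SE 0.12, adjusted p = 0.000912) and -0.94 (SE 0.12, adjusted p = 1.13e-05). Tpi1, triosephosphate isomerase, had 706 and 643 CPM in EV, 350.5 and 289.7 CPM in WT and 398 and 361 CPM in dHLH, a log2 difference of -1.07 (SE 0.24, adjusted p = 0.0039) and -0.82 (SE 0.24, adjusted p = 0.0175). Tpi1 overlaps Spsb2 on the opposite strand and has 2 near-identical copies.

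Gbe1 rose with both constructs, with 40.7 and 46.3 CPM in EV, 65.0 and 80.5 CPM in WT and 95.7 and 105 CPM in dHLH. The differences were 0.74 (SE 0.13, adjusted p = 0.000367) and 1.21 (SE 0.13, adjusted p = 1.25e-06). Gys1 had 52.7 and 48.1 CPM in EV, 78.1 and 91.4 CPM in WT and 66.9 and 74.8 CPM in dHLH, higher by 0.75 (SE 0.13, adjusted p = 0.000406) and 0.50 (SE 0.13, adjusted p = 0.00896). Pgm1 had 122 and 138 CPM in EV, 206 and 228 CPM in WT and 179 and 179 CPM in dHLH, higher by 0.74 (SE 0.11, adjusted p = 8.03e-05) and 0.46 (SE 0.11, adjusted p = 0.00377). In every one of these genes both EV libraries lay below the libraries of WT and dHLH.

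Some members were called with 1 construct and not the other, which does not show that the constructs differed. With WT, Pdk2 had 3.54 and 7.37 CPM against 1.36 and 2.24 CPM in EV, higher by 1.59 (SE 0.53, adjusted p = 0.0369), Pfkfb3 had 2.86 and 1.66 CPM against 5.18 and 4.82 CPM, a log2 difference of -1.15 (SE 0.40, adjusted p = 0.0469), and Pfkfb4 had 13.5 and 15.0 CPM against 24.7 and 23.9 CPM, a log2 difference of -0.77 (SE 0.21, adjusted p = 0.0125). Their counts were low, and Pdk2 and Pfkfb3 lost their calls without EV replicate 1, EV replicate 2 or WT replicate 2 (adjusted p = 0.0797 to 0.378), and Pfkfb4 without EV replicate 1 (0.0725) or WT replicate 1 (0.0851). With dHLH, Ldhb had 14.5 and 16.7 CPM against 29.1 and 28.2 CPM, a log2 difference of -0.88 (SE 0.18, adjusted p = 0.0014), and Ldha had 1069 and 1021 CPM against 1299.8 and 1218 CPM, a log2 difference of -0.26 (SE 0.09, adjusted p = 0.0404). Eno2 had 7.02 and 6.98 CPM against 11.7 and 11.1 CPM and Hk1 222 and 222 CPM against 360.1 and 361 CPM, and both fell (-0.70 and -0.69).

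Of the genes followed throughout, Slc2a1 had 80.4 and 70.4 CPM in EV, 67.1 and 50.4 CPM in WT and 67.0 and 53.1 CPM in dHLH and did not pass (-0.36 and -0.31), and Pdk1 had 74.5 and 75.6, 79.7 and 72.2 and 82.1 and 82.7 CPM and did not pass (0.02 and 0.14). Slc16a3 had 0.247 and 0.112 CPM in EV, 1.496 and 1.31 CPM in WT and 1.60 and 0.973 CPM in dHLH and did not pass (adjusted p = 0.0627 and 0.0594). Of 52 other pathway genes tested, 18 passed with WT (9 higher and 9 lower) and 20 with dHLH (12 higher and 8 lower). Gpd1 fell in both (-2.99 and -4.00), and Eno3, the muscle enolase, rose in both (1.76 and 2.02). The melanocytic sum was 346 to 349 CPM in EV shNC, 119 to 122 CPM in WT shNC and 41.3 to 44.3 CPM in dHLH shNC with Dct, Mlana and Tyrp1 at 0 in all 6 libraries, and its part in these differences was not tested. The WT count of members was 6, 8, 11 and 6 without EV replicates 1 and 2 and WT replicates 1 and 2, and the dHLH count was 6, 6, 8 and 6 without EV replicates 1 and 2 and dHLH replicates 1 and 2. Eno2, Tpi1 and Ldha lost their dHLH calls each time, Gys1 without EV replicate 2 or dHLH replicate 2, and Tpi1 its WT call without WT replicate 2.

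Hairpins against Myh9 changed few members in 5 of the 6 comparisons. In EV cells, 3 of 37 members passed with shMyh9#2 (2 higher and 1 lower), where 6.65% of all genes passed (4.2% higher and 2.46% lower), and 1 fell with shMyh9#4, where 1.71% passed (1.45% higher and 0.256% lower). In WT cells, 3 of 37 rose with shMyh9#2, where 4.76% passed (2.35% higher and 2.41% lower). With shMyh9#4 in WT cells, edgeR called 0 of 37 members and DESeq2 2, with 0.236% of all genes called (0.0876% higher and 0.148% lower). At an unadjusted p under 0.05 in edgeR were 16 of 37 members and 1794 of 14848 genes. In dHLH cells, 1 rose with shMyh9#2, where 0.559% passed (0.296% higher and 0.263% lower), and 11 of 37 passed with shMyh9#4 (9 higher and 2 lower), where 15.1% passed (6.28% higher and 8.86% lower). The 2 hairpins of a construct share its shNC libraries.

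In EV cells, 2 glycogen genes were higher with shMyh9#2. Gys1 had 52.7 and 48.1 CPM with shNC, 74.5 and 82.2 CPM with shMyh9#2 and 48.1 and 55.6 CPM with shMyh9#4. The shMyh9#2 libraries were above the rest, by 0.64 (SE 0.13, adjusted p = 0.00568), and the shMyh9#4 difference was 0.04 (SE 0.13, adjusted p = 0.964). Pgm1 had 122 and 138 CPM with shNC, 191 and 193 CPM with shMyh9#2 and 149.7 and 161 CPM with shMyh9#4, and differed by 0.56 (SE 0.11, adjusted p = 0.00369) and 0.25 (SE 0.11, adjusted p = 0.411). Tpi1 had 301 and 396 CPM with shMyh9#2 against 706 and 643 CPM, a log2 difference of -0.95 (SE 0.24, adjusted p = 0.0248). Slc16a1 had 42.2 and 35.5 CPM with shMyh9#4 against 59.96 and 57.3 CPM, a log2 difference of -0.60 (SE 0.14, adjusted p = 0.0407).

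These calls were sensitive to single libraries. The shMyh9#2 count was 1 without shNC replicate 1, shNC replicate 2 or shMyh9#2 replicate 2 and 2 without shMyh9#2 replicate 1, and Tpi1 was lost each time (adjusted p = 0.0589 to 0.26). The shMyh9#4 count was 0 without shNC replicate 1, shNC replicate 2 or shMyh9#4 replicate 2 and 2 without shMyh9#4 replicate 1, and Slc16a1 was lost each time (0.0544 to 0.448). Gys1 was lost without shNC replicate 2 or shMyh9#2 replicate 2 (0.101 and 0.0726) and Pgm1 without shNC replicate 1 (0.0903). The melanocytic sum was 346 to 349 CPM with shNC, 205 to 217 CPM with shMyh9#2 and 250.2 to 282 CPM with shMyh9#4, and its part in these calls was not tested.

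In WT cells, Pfkp had 45.8 and 56.5 CPM with shNC and 104 and 96.1 CPM with shMyh9#2. The difference was 0.96 (SE 0.15, adjusted p = 0.000828), and shMyh9#4 gave 68.0 and 68.9 CPM (0.42, adjusted p = 0.259). Pfkp overlaps Pitrm1 on the opposite strand, and the last 300 bases of a Pfkp transcript also occur in Pitrm1. The strand setting is not known, so Pfkp counts are less certain in every comparison. Slc16a1 had 30.3 and 32.8 CPM with shNC and 51.2 and 54.6 CPM with shMyh9#2, higher by 0.74 (SE 0.15, adjusted p = 0.00593). Pfkfb3 had 2.86 and 1.66 CPM with shNC and 5.29 and 7.63 CPM with shMyh9#2, higher by 1.51 (SE 0.39, adjusted p = 0.0312). Each of the called genes separated the 2 groups fully, as did most members tested, called or not. Hif1a had 113 and 101 CPM with shNC and 162 and 158 CPM with shMyh9#2 and rose by 0.57 (SE 0.11, adjusted p = 0.00383). Pfkp passed with every library left out in turn, while the count was 1 without shNC replicate 1 or shMyh9#2 replicate 2 and 2 without the others, Pfkfb3 being lost each time (adjusted p = 0.0567 to 0.288) and Slc16a1 without those first 2 (0.0635 and 0.0612). The melanocytic sum was 119 to 122 CPM with shNC and 56.5 to 59.0 CPM with shMyh9#2, and its part in these calls was not tested.

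The 11 members called with shMyh9#4 in dHLH cells were mostly higher. In these cells Myh9 had 908 and 877 CPM with shNC, 679 and 636 CPM with shMyh9#4 and 291 and 263 CPM with shMyh9#2. The shMyh9#4 libraries had 3643332 and 6001340 counts, the first being the smallest of all libraries. The part of Myh9 level or of depth in these calls was not tested. Tpi1 had 398 and 361 CPM with shNC and 197 and 188 CPM with shMyh9#4, a log2 difference of -0.96 (SE 0.25, adjusted p = 0.0151). Pgm2, another phosphoglucomutase, had 9.94 and 10.1 CPM with shNC and 14.7 and 18.6 CPM with shMyh9#4, higher by 0.77 (SE 0.21, adjusted p = 0.0218). Slc16a1 had 23.4 and 24.5 CPM with shNC and 32.7 and 44.3 CPM with shMyh9#4, higher by 0.73 (SE 0.16, adjusted p = 0.0057). The groups did not overlap in any of the 11, and neither did they in most members tested, called or not.

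Pygb, the brain isoform of glycogen phosphorylase, had 34.6 and 37.8 CPM with shNC and 54.7 and 59.8 CPM with shMyh9#4, higher by 0.69 (SE 0.21, adjusted p = 0.0331). Pfkp had 55.4 and 59.2 and 79.0 and 98.6 CPM, higher by 0.66 (SE 0.15, adjusted p = 0.00896), and Pgm1 had 179 and 179 and 243 and 259 CPM, higher by 0.51 (SE 0.11, adjusted p = 0.00517). Gpi1, Pfkl, Hk1 and Pgam1 rose by 0.41 to 0.49, and Pdhb, a subunit of pyruvate dehydrogenase, fell by 0.48. The count was 0 without shNC replicate 1 or without shMyh9#4 replicate 2, 5 without shNC replicate 2 and 9 without shMyh9#4 replicate 1, and Pygb was lost each time (adjusted p = 0.0649 to 0.229). The melanocytic sum was 41.3 to 44.3 CPM with shNC and 68.8 to 73.6 CPM with shMyh9#4, and its part in these differences was not tested.

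With shMyh9#2 in dHLH cells, Slc2a3 had 86.4 and 91.7 CPM with shNC and 144 and 154 CPM with shMyh9#2, higher by 0.74 (SE 0.16, adjusted p = 0.0405), and it did not pass with any 1 of the 4 libraries left out (adjusted p = 0.0908 to 0.366). Over the 6 hairpin comparisons in the order EV, WT and dHLH, with shMyh9#2 before shMyh9#4 in each, the log2 differences of Ldha were -0.29, -0.13, -0.18, -0.43, 0.24 and 0.00, and those of Pdk1 0.05, 0.13, 0.20, -0.15, 0.04 and -0.10. Neither gene passed in any. Slc2a1 (-0.40, 0.17, 0.02, -0.50, 0.19 and -0.72) and Hk2 (0.02, -0.10, 0.17, -0.41, -0.08 and -0.06) did not pass either. Slc16a3 had at most 4.14 CPM in any hairpin library and was not called in these comparisons.

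**Figure D4:**
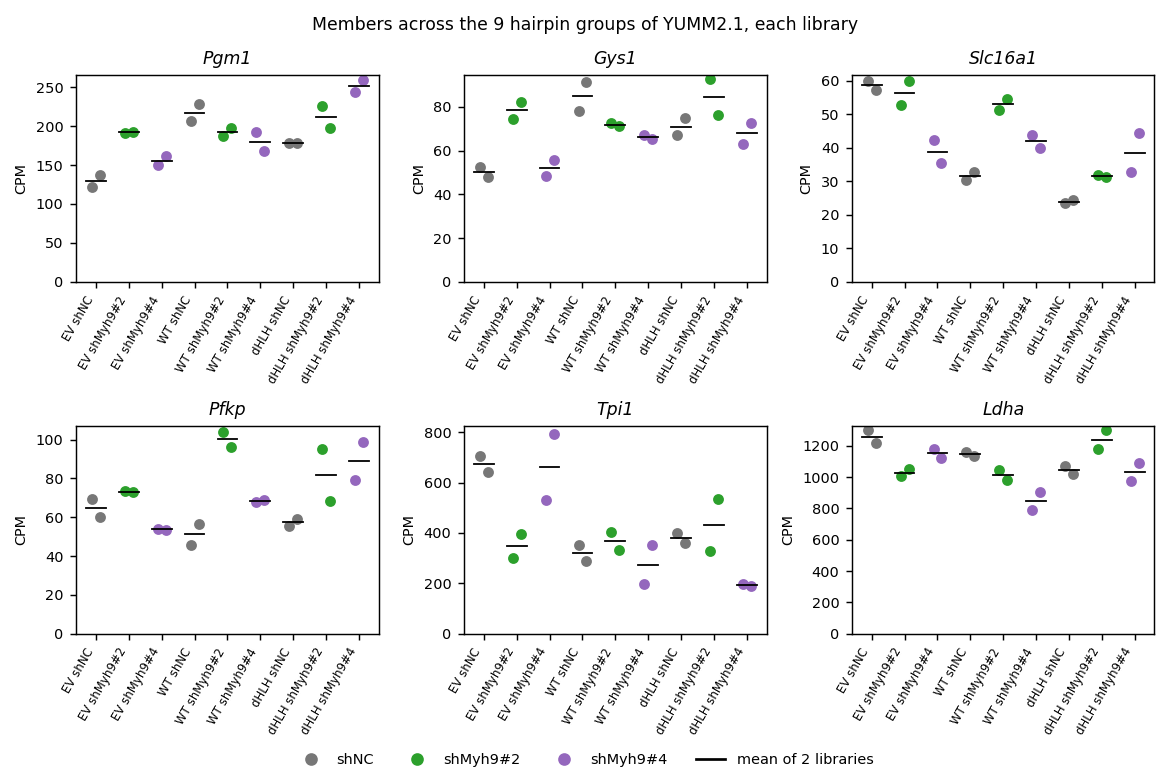
CPM of Pgm1, Gys1, Slc16a1, Pfkp, Tpi1 and Ldha (y axes from 0) in the 9 groups of YUMM2.1 with a hairpin (x axis), 1 point per library, coloured by hairpin, with a line at the mean of the 2. Slc16a1 is highest in EV shNC and lowest in dHLH shNC, Pgm1 is lowest in EV shNC, and Pfkp is highest in WT shMyh9#2.

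Over the 16 comparisons within an experiment, 31 of the 38 members tested passed at least once, where 43.8% of 16623 genes tested did. Pgm1 rose in 7, Gbe1 in 5 and Gys1 in 4 of them and none of the 3 fell in any. Of all genes, 0.174% rose in at least 7, 1.56% in at least 5 and 3.28% in at least 4. In the same comparisons, Slc16a1 rose in 2 and fell in 4. Tpi1 fell in 4, where 2.98% of all genes fell in at least 4. These counts include comparisons that share control libraries. The 8 members that passed in none were Pfkm, Pfkfb2, Aldoa, Aldoc, Eno1, Pdk4, Pdha1 and G6pdx, of which Pfkfb2 (457 counts in all libraries) and Pdk4 were near the detection limit.

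**Figure D5:**
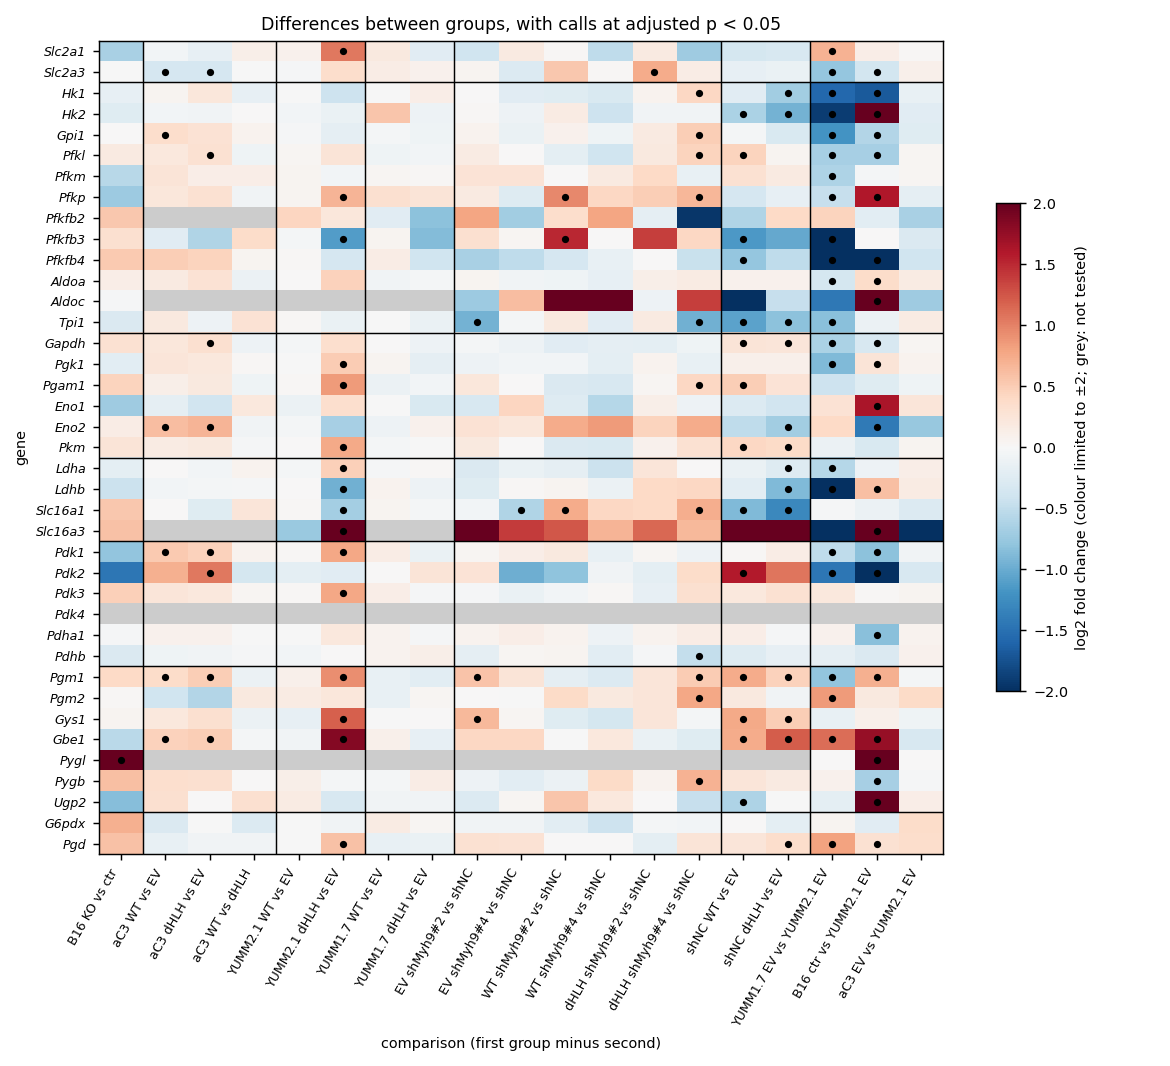
Log2 fold change of the 39 members (rows) in 19 comparisons (columns, first group minus second), with colour limited to 2 in either direction, dots for an adjusted p under 0.05 and grey for genes not tested. Dots are absent from the YUMM1.7 construct columns and from YUMM2.1 WT against EV, and the glycogen rows Pgm1, Gys1 and Gbe1 carry red dots in YUMM2.1 dHLH and in both shNC columns.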

How the data were processed

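40 libraries, labelled as 2 replicates in each of 20 groups, were sequenced with QuantSeq FWD 3′ mRNA kits. The authors aligned reads with bowtie2 to mm10 and deposited RSEM estimated counts rounded to whole numbers. The sources gave different RSEM versions, and the strand setting and annotation release are not given in the sources used here. The authors called genes with DESeq2. Symbols came from GENCODE M21 (51596 of 51789 identifiers). An allele that the YUMM lines also carry is not reported here. The members and all gene lists were chosen with earlier results of these data known.

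Counts were filtered with filterByExpr, TMM-scaled and tested per experiment with edgeR 4.0.16 (quasi-likelihood, two-sided, limma 3.58.1, R 4.3.3), and lines and interactions in one fit of all 40 libraries, with Benjamini-Hochberg adjustment over all genes tested and a threshold of 0.05. The scripts were tested on simulated data. Members named with values were, per comparison, up to 6 called ones with the largest absolute log2 fold change and no overlap between groups. Their lack of overlap was therefore fixed by this choice. Slc2a1, Hk2, Ldha, Pdk1, Slc16a3 and Gys1 were followed throughout, and others named with values were chosen after their values were seen. Labels do not say that replicates were separate cultures, so p-values measure the spread between these libraries. Counting intervals and floors (3 counts per library) cover counting error only. Depth was 3643332 to 22970049 counts per library. Alternatives were DESeq2 1.42.0 and its size factors, no filter, one fit of all libraries, only the 2 groups compared, a replicate block, each library left out, and the conflicting YUMM2.1 labels exchanged or left out.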

Additional observations from a re-analysis of the deposited data

Results flagged for a closer look

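The effect of dHLH differed between aC3 and YUMM2.1, by a test of the difference itself in one fit of all 40 libraries, in 9 of 38 members, where 11.6% of all genes tested were called. The log2 effect in aC3 minus that in YUMM2.1 was -1.33 for Gbe1, -1.19 for Slc2a1, -0.85 for Gys1, -0.67 for Slc2a3, -0.64 for Pgd and -0.51 for Ldha, and 1.37 for Eno2, 0.95 for Ldhb and 0.65 for Hk1. Eno2, for example, was 0.68 in aC3 and -0.67 in YUMM2.1, and Slc2a1 was -0.16 and 1.05. Slc2a1, Ldhb and Slc2a3 did not pass without the 2 YUMM2.1 libraries of conflicting labels (adjusted p = 0.136, 0.0573 and 0.0674), nor did Slc2a1 with the labels exchanged (0.0521).

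The effect of shMyh9#2 differed between WT and EV cells in 4 of 37 members, where 5.18% of all genes were called. WT minus EV was 0.80 for Slc16a1 and 0.78 for Pfkp, and -0.89 for Gys1 and -0.75 for Pgm1. It differed between dHLH and EV cells in 1 member, Ldha, by 0.53, where 3.29% were called.

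The effect of dHLH also differed between YUMM2.1 with shNC and without a hairpin, a comparison added after seeing the data, in 4 of 38 members, where 1.82% of all genes were called. The shNC effect minus the other was -1.37 for Slc2a1, -0.85 for Pfkp, -0.81 for Hk2 and -0.74 for Ldha. Ldha was -0.26 with shNC and 0.48 without. These cultures came from different experiments, and hairpin and experiment cannot be told apart. Slc2a1 did not pass without the 2 conflicting libraries (adjusted p = 0.179).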

How the results depend on the processing

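Signs were checked for up to 6 called members per comparison and for the called ones among the 6 genes followed throughout. None of these changed sign under the alternatives that gave an adjusted p. Members named without a call were not checked. The split of calls did move. It was 16 higher and 9 lower in B16-F10 without KO replicate 1 and 5 and 10 without KO replicate 2, against 1 and 0 with all libraries, and 5 and 6 in shNC WT in one fit of all 40 libraries, against 8 and 6. In aC3 dHLH without EV replicate 1, 0 members rose and 1 fell, which was not among the 8 called with all libraries. The median of the members turned from 0.000344 to -0.01 in YUMM1.7 WT in one fit and without EV replicate 2, and from 0.00406 to -0.09 in EV shMyh9#4 without shMyh9#4 replicate 2. With 1 library left out at a time, the number of members called ran from 0 to 25 in B16-F10, 1 to 1 in aC3 WT, 1 to 10 in aC3 dHLH, 0 to 1 in aC3 WT against dHLH, 0 to 0 in YUMM2.1 WT, 5 to 7 in YUMM2.1 dHLH, 0 to 1 in YUMM1.7 WT and in YUMM1.7 dHLH, 1 to 2 in EV shMyh9#2, 0 to 2 in EV shMyh9#4, 1 to 2 in WT shMyh9#2, 0 to 0 in WT shMyh9#4 and dHLH shMyh9#2, 0 to 9 in dHLH shMyh9#4, 6 to 11 in shNC WT, 6 to 8 in shNC dHLH, 16 to 19 between YUMM1.7 and YUMM2.1, 18 to 19 between B16-F10 and YUMM2.1, and 0 to 0 between aC3 and YUMM2.1. One fit of all 40 libraries gave 11 in B16-F10, 1 in aC3 WT, 0 in aC3 dHLH, 0 in EV shMyh9#4, 2 in dHLH shMyh9#2 and 6 in dHLH shMyh9#4. Without a filter on low counts the number was 1 in YUMM1.7 WT, 2 in YUMM1.7 dHLH, 2 in EV shMyh9#4, 6 in WT shMyh9#2, 4 in WT shMyh9#4, and 7, 3 and 7 for the differences of effects of shMyh9#2 (WT minus EV, dHLH minus EV) and of dHLH (shNC minus no hairpin). DESeq2 called 1 in YUMM1.7 dHLH, 2 in WT shMyh9#4 and 2 for the dHLH minus EV difference of shMyh9#2. With the conflicting YUMM2.1 labels exchanged, aC3 against YUMM2.1 gave 1 and the shNC difference 7, and without both libraries YUMM2.1 dHLH gave 5. In the alternatives where calls were lost, the cause was not tested.

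The replicate numbers were not accepted as pairs, since every comparison had 2 pairs and nothing in the labels ties a number to a shared culture; same-numbered libraries deviated together with r from 0.265 to 0.586 in YUMM2.1 and from -0.305 to 0.407 in the hairpin libraries. With the replicate block the count was 0 in EV shMyh9#4 and 0 in dHLH shMyh9#2, against 1 in each without it, as Slc16a1 (adjusted p = 0.0539) and Slc2a3 (0.0546) were lost. It was 20 in YUMM2.1 dHLH (15 higher and 5 lower, with 27.1% of all genes called against 13.2%), 9 in aC3 WT (from 6) and 11 in aC3 dHLH (from 8). Pfkfb3 in shNC WT (0.0551), Eno2 in shNC dHLH (0.0547) and Pfkp for the shMyh9#2 effect in WT minus EV (0.0531, a count of 3 from 4) also lost their calls under the block. Few counts limited Pdk4, Pfkfb2, Pygl, Aldoc and Slc16a3.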
